A study of Mus musculus with 17 samples.

Results

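Dentate granule cells are the principal excitatory neurons of the dentate gyrus, the hippocampal region that receives cortical input from the entorhinal cortex and passes it through mossy fibre axons to CA3. The genes described here are 6 that atlases of mouse brain place in these cells: C1ql2, Prox1, Lct, Dsp, Tdo2 and Pkp2. They are 6 of the 46073 genes in the deposited tables and were taken as a fixed list, chosen because the FPKM of these same libraries had shown them high in the doxycycline group. FPKM is fragments per kilobase of transcript scaled to the number of mapped reads. Their level in the doxycycline group against the others is therefore given as a description, with no test, and tests were kept for the comparison of the untreated groups and for genes outside the list.

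RNA was measured in tissue labelled frontal cortex from male mice of the inbred strain FVB/N. The dTgDox group (n = 3) carried both the CamK driver and the pTRE-miR-211 transgene (dTg-211) and received doxycycline for 4 days. The dTg group carried the same dTg-211 genotype without doxycycline (7 libraries labelled so, 6 used here). The Ct group (n = 6) carried the CamK driver alone, so every group used here carries the driver, which acts mainly in forebrain excitatory neurons, and none is free of transgenes. The transactivator made by such a driver turns on pTRE-miR-211, and doxycycline is meant to turn it off; the labels give no ages, and they list no doxycycline-treated Ct mice, so the drug and the withdrawal of miR-211 cannot be told apart. The labels do not say that each library came from a separate animal, and the first lines of the files for dTg replicates 5, 6 and 7 share a number whose meaning is not given, so p-values measure the spread between these libraries, which may in part be technical.

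The 17 files held 16 distinct libraries, with totals of 595615 to 695518 FPKM and an estimated 20.6 to 31.3 M reads each. The file of the 1 library labelled PTRE-miR-211 without CamK was identical to that of dTg replicate 1 in all 46073 genes, and its first line names the dTg library as well. The library labelled dTg replicate 1 also went against its tissue label: 10 cerebellar marker genes summed to 2967 FPKM in it, against 13.6 to 42.1 FPKM in the other dTg libraries and 11.4 to 29.2 FPKM in Ct, and the cortical transcription factor gene Tbr1 stood at 0.0372 FPKM. It is given apart throughout, which leaves 15 libraries. Markers of neocortical excitatory neurons were present in all of these: 10 such genes summed to 501.5 to 541.2 FPKM in dTgDox, 574.1 to 763.1 FPKM in dTg and 567.0 to 815.3 FPKM in Ct.

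The 6 members have unlike roles. Prox1 encodes a homeodomain transcription factor needed for granule cells to form and keep their identity; it is also used by interneurons born in the caudal ganglionic eminence. C1ql2 encodes a secreted C1q-like protein that granule cells release at mossy fibre synapses, where it links neurexins with kainate receptors. Dsp and Pkp2 encode desmoplakin and plakophilin 2, structural proteins of desmosomes, the cell junctions best known from epithelium and heart. Tdo2 encodes tryptophan 2,3-dioxygenase, which starts the kynurenine route of tryptophan breakdown, and Lct encodes lactase, an intestinal brush border enzyme whose mRNA serves as a granule cell marker in mouse.

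In GENCODE M21 (GRCm38) 3 of the 6 genes lie on chromosome 1, far apart: C1ql2 (ENSMUSG00000036907) at chr1:120340582-120343174 on the plus strand, Lct (ENSMUSG00000026354) at chr1:128284756-128328318 on the minus strand and Prox1 (ENSMUSG00000010175) at chr1:190118035-190170714 on the minus strand. Dsp (ENSMUSG00000054889) is at chr13:38151294-38198577 on the plus strand. Tdo2 (ENSMUSG00000028011) is at chr3:81957090-81976202 on the minus strand and Pkp2 (ENSMUSG00000041957) at chr16:16213318-16272712 on the plus strand. All 6 are protein coding, with 2 annotated exons in C1ql2 and 28 in Dsp as the lowest and highest counts over all transcripts together.

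The transgene expresses miR-211, whose mature 5p strand is shown because its seed, bases 2 to 8 in capitals, was used to search 3'UTRs (RefSeq, GRCm38.p6, chr7:64205831-64205852, plus strand).
mmu-miR-211-5p: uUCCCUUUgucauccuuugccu
The complementary 7 letters in a transcript are AAAGGGA. None of the 6 members held these letters in its longest annotated 3'UTR, which ran from 363 bases in Lct to 5185 bases in Prox1. Of 14374 genes with an annotated 3'UTR, 2519 (17.5%) held them, over a median length of 1347 bases. The absence says only that these letters are not in those 3'UTRs, and shorter seed matches were not searched.

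Promoter windows from 250 bases before to 50 after a start site were available for 5 of the 6 members (6 windows, RefSeq, GRCm38.p6; Pkp2 had no entry). They are shown for the 3 chromosome 1 genes because the Lct window is unlike those of C1ql2 and Prox1 in base composition. Capitals mark matches on either strand to any of 6 motifs: the E-boxes CAGATG and CAGCTG, the CRE half-site TGACG, the TATA box TATAAA, the CCAAT box CCAAT and the GC box GGGCGG.
C1ql2, chr1:120340332-120340631, plus strand: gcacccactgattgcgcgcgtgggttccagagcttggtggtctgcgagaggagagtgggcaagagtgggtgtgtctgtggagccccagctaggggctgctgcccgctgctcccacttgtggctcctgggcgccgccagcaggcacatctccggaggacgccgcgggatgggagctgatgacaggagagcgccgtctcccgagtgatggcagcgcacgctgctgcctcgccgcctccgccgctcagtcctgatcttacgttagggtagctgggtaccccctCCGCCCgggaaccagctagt
Prox1, first start site, chr1:190170778-190171077, minus strand: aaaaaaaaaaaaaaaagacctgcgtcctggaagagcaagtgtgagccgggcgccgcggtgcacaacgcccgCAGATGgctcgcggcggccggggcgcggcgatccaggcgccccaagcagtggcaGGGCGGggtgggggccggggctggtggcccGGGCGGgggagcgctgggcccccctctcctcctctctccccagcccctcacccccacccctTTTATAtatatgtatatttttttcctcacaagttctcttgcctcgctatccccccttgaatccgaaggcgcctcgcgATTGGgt
Lct, chr1:128328269-128328568, minus strand: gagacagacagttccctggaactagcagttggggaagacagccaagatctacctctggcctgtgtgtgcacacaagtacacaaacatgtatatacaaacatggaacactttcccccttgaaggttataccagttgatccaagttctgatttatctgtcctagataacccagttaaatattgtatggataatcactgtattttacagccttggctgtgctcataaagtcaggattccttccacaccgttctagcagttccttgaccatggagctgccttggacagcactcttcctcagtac
GC content was 67.3% in the C1ql2 window, 64.3% in the Prox1 window and 44.7% in the Lct window, against a median of 52.7% over 32851 promoters. The Prox1 window held 5 matches: CAGATG at -179, the GC box at -125 and -95, the TATA letters on the reverse strand at -34 and the CCAAT letters on the reverse strand at 43. The C1ql2 window held 1, a GC box on the reverse strand at 30, and the Lct window none. CAGATG, the form of E-box that NeuroD factors bind, occurred in 1 of the 6 member windows and in 17.2% of all promoters, and the GC box in 4 of 6 against 35.7%. CAGCTG was in 0 of 6 against 16.3%, TGACG in 0 of 6 against 20.8%, TATAAA in 2 of 6 against 13.6% and CCAAT in 2 of 6 against 37.4%. A match is a run of letters and not a measured binding site.

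In dTgDox libraries all 6 members stood above every library of dTg replicates 2 to 7 and Ct, with folds of the group means between 3.64 and 60.4 over dTg. Over all genes tested, 11.3% were higher in each dTgDox library than in all dTg, 11.5% than in all Ct, and 8.06% than in all 12 together, and since the list was chosen from these values nothing further is read from the count of 6 of 6. The plot of FPKM by library shows each value.

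**Figure D1:**
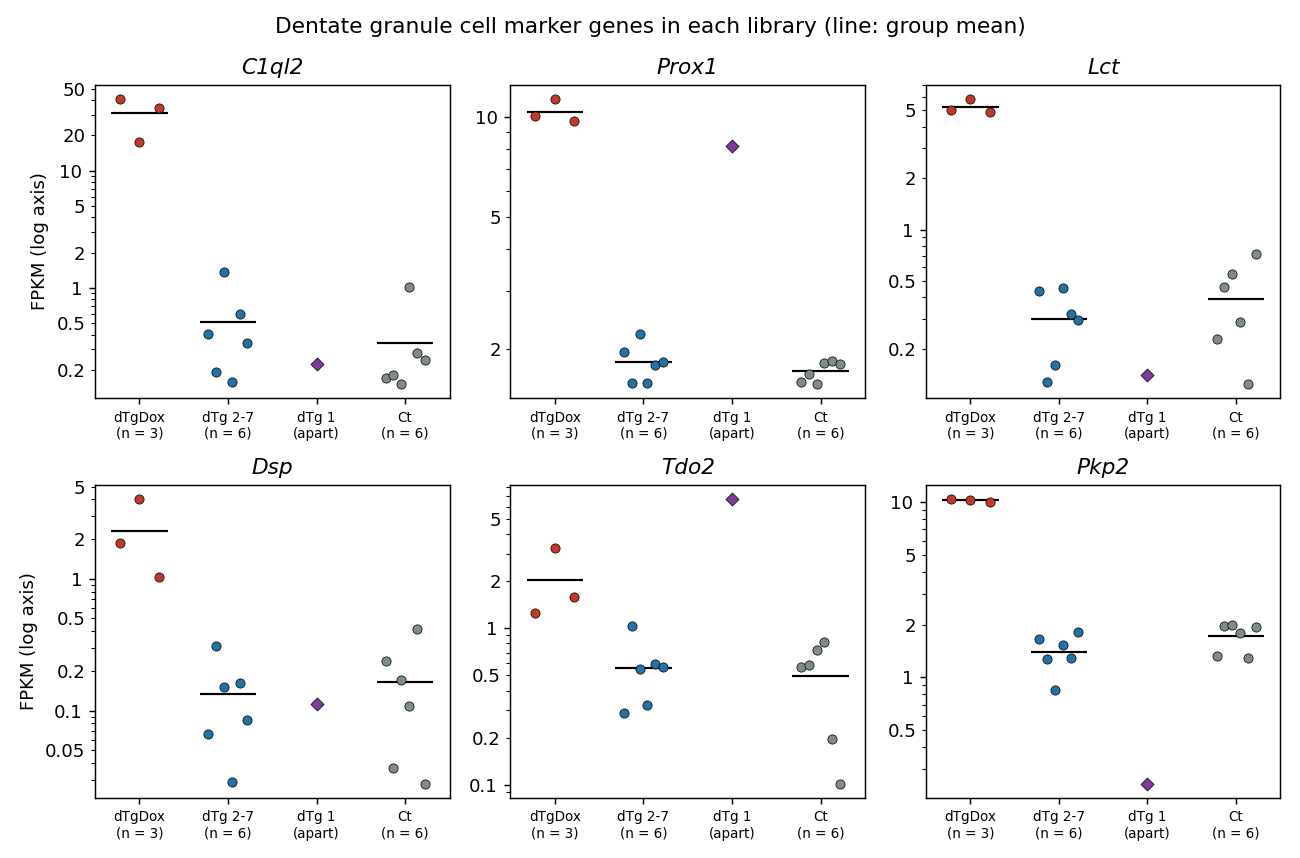
FPKM of the 6 genes in each library on a log axis, 1 panel per gene, for dTgDox (n = 3), dTg replicates 2 to 7 (n = 6), dTg replicate 1 (diamond) and Ct (n = 6); lines are group means. In every panel the 3 dTgDox libraries lie above all dTg 2 to 7 and Ct libraries, whereas dTg replicate 1 is high for Prox1 (8.18 FPKM) and Tdo2 (6.71 FPKM) only.

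The secreted synaptic organiser C1ql2 had the highest level and the largest difference. It had 40.6, 17.4 and 34.02 FPKM in dTgDox replicates 1, 2 and 3, against 0.157 to 1.36 FPKM in dTg (median 0.371) and 0.152 to 1.03 FPKM in Ct (median 0.213). The 3 groups fell into a high and a low range with nothing between them, and the lowest dTgDox library stood 12.8-fold above the highest of the other 12. The means were 30.7 ± 12.0 FPKM in dTgDox (SD, n = 3), 0.508 ± 0.447 FPKM in dTg (SD, n = 6) and 0.343 ± 0.338 FPKM in Ct (SD, n = 6), a ratio of means of 60.4 to dTg and 89.6 to Ct. On the log2(FPKM + 0.5) scale used for all fits, which pulls in differences of low genes, dTgDox minus dTg was 4.96 (SE 0.35).

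Prox1, the granule cell transcription factor, was tight in every group. It had 10.1, 11.3 and 9.73 FPKM in dTgDox, against 1.58 to 2.23 FPKM in dTg (median 1.82) and 1.58 to 1.85 FPKM in Ct (median 1.75). None of these 12 untreated libraries reached 3 FPKM and no dTgDox library fell below 9 FPKM. The means were 10.4 ± 0.842 FPKM in dTgDox, 1.83 ± 0.243 FPKM in dTg and 1.72 ± 0.120 FPKM in Ct (SD), and dTgDox minus dTg was 2.22 (SE 0.10) on the log2 scale. Its antisense neighbour Prox1os overlaps it on the plus strand, and averaged 5.42 ± 0.397 FPKM in dTgDox, 1.34 ± 0.405 FPKM in dTg and 1.14 ± 0.467 FPKM in Ct (SD). Whether the authors' quantification used strand is not given in the sources used here, so reads of Prox1 and Prox1os cannot be told apart where they overlap; Gm28172 overlaps Prox1 and Gm10129 overlaps Dsp in the same way.

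Pkp2 and Dsp encode parts of the same junction but differed in how even they were. Pkp2 had 10.4, 10.3 and 9.95 FPKM in dTgDox, against 0.846 to 1.82 FPKM in dTg (median 1.41) and 1.29 to 2.003 FPKM in Ct (median 1.87). Its 3 dTgDox libraries were nearly equal, with a coefficient of variation of 2.4%, and dTgDox minus dTg was 2.52 (SE 0.16). Dsp had 1.87, 4.04 and 1.03 FPKM in dTgDox, against 0.0285 to 0.310 FPKM in dTg (median 0.118) and 0.0280 to 0.413 FPKM in Ct (median 0.139). Its dTgDox libraries spread 3.92-fold from lowest to highest, a coefficient of variation of 67.2%, yet the lowest was 2.49-fold above the highest of the other 12. Dsp was the lowest member in both untreated groups, and dTgDox minus dTg was 2.02 (SE 0.27).

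The enzyme genes were Lct and Tdo2. Lct had 5.05, 5.82 and 4.90 FPKM in dTgDox, against 0.128 to 0.455 FPKM in dTg (median 0.309) and 0.125 to 0.718 FPKM in Ct (median 0.374), and dTgDox minus dTg was 2.86 (SE 0.20). Tdo2 had 1.25, 3.25 and 1.59 FPKM in dTgDox, against 0.288 to 1.03 FPKM in dTg (median 0.555) and 0.102 to 0.820 FPKM in Ct (median 0.571). Tdo2 came closest to overlap: its lowest dTgDox library was 1.21-fold above the highest other library, dTg replicate 3, and dTgDox minus dTg was 1.21 (SE 0.29), the smallest of the 6. Against Ct, which shares the same dTgDox libraries, the differences of dTgDox were 5.20 for C1ql2, 2.29 for Prox1, 2.72 for Lct, 1.96 for Dsp, 1.32 for Tdo2 and 2.29 for Pkp2. Only 4 of the 6 would have passed the filter on low values without the dTgDox libraries; Lct and Dsp passed through these alone.

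FPKM is scaled to length, so levels can be ordered between genes. In dTgDox the order of mean FPKM was C1ql2, Prox1, Pkp2, Lct, Dsp and Tdo2; Prox1 and Pkp2 differed by less than the SD of Prox1, and Dsp and Tdo2 by less than either SD. In dTg it was Prox1 (1.83 FPKM), Pkp2 (1.40), Tdo2 (0.558), C1ql2 (0.508), Lct (0.300) and Dsp (0.134), and in Ct it was Prox1 (1.72), Pkp2 (1.72), Tdo2 (0.497), Lct (0.394), C1ql2 (0.343) and Dsp (0.166). In both untreated groups Tdo2, C1ql2 and Lct differed by less than the SD of C1ql2. C1ql2 thus led in dTgDox, and without doxycycline its mean lay below those of Prox1 and Pkp2. No order between C1ql2 and Tdo2 is read in the untreated groups.

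The 6 genes did not vary together within the dTgDox group. Replicate 2 had the lowest C1ql2 (17.4 FPKM) and the highest Dsp (4.04 FPKM), Tdo2 (3.25 FPKM), Prox1 (11.3 FPKM) and Lct (5.82 FPKM) of the 3 libraries. The ratio of C1ql2 to Prox1 was 4.04, 1.54 and 3.50 in dTgDox replicates 1, 2 and 3, against 0.0985 to 0.612 in dTg and 0.0967 to 0.563 in Ct, so that dTgDox did not overlap either group. The ratio of Prox1 to Pkp2 was 0.965, 1.10 and 0.978 in dTgDox, against 1.01 to 2.63 in dTg and 0.787 to 1.43 in Ct, where the groups overlapped.

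**Figure D2:**
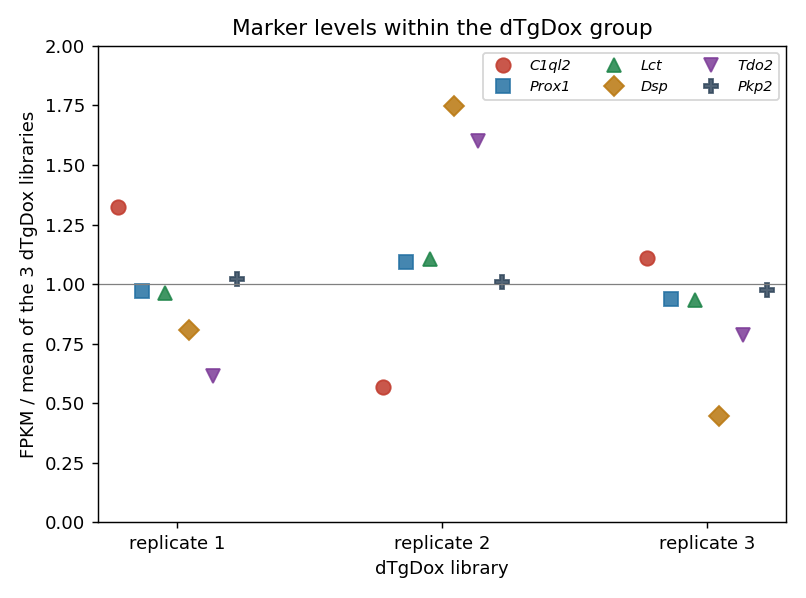
FPKM of each gene in each dTgDox library (x axis) divided by that gene's mean over the 3 libraries (y axis, no unit; 1 is the mean). Pkp2 stays near 1 in all 3, whereas in replicate 2 C1ql2 is lowest and Dsp and Tdo2 are highest.

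Without doxycycline, no difference of a member was detected between the groups with and without the miR-211 transgene. Of 19064 genes tested in limma, 0% (0 genes) passed an adjusted p of 0.05 in dTg against Ct, 607 had an unadjusted p under that value, and the smallest adjusted p was 0.3132. None of the 6 members passed or had every dTg library above all Ct libraries (0.0787% of all genes did), and their adjusted p was 0.9999 each. The dTg minus Ct difference was 0.06 on the log2 scale for Prox1 (SE 0.08, 95% interval -0.11 to 0.23) and 0.23 for C1ql2 (SE 0.28, 95% interval -0.37 to 0.84). It was 0.11 for Tdo2 (95% interval -0.40 to 0.61) and -0.14 for Lct (-0.49 to 0.20). It was -0.06 for Dsp, which reached 0.5 FPKM in 0 of the 12 untreated libraries, so that the value mostly reflects the added 0.5 and bounds no difference. Lct and Dsp entered this test only through their dTgDox levels. Pkp2 had the smallest unadjusted p, 0.0993, at -0.23 (SE 0.13, 95% interval -0.51 to 0.05), with 3 of 6 dTg libraries below all 6 Ct libraries.

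C1ql2 had 1 high library in each untreated group, and both carried the replicate number 4. It stood at 1.36 FPKM in dTg replicate 4 and at 1.03 FPKM in Ct replicate 4; the other libraries reached 0.595 FPKM in dTg and 0.279 FPKM in Ct. Without them C1ql2 averaged 0.337 ± 0.177 FPKM in dTg and 0.206 ± 0.0539 FPKM in Ct (SD, n = 5 each). Prox1 was also highest of its group in dTg replicate 4 (2.23 FPKM), but at 1.82 FPKM in Ct replicate 4 it lay inside the Ct range. Over the 12 untreated libraries, the 15 pairs of members had Pearson correlations of log2 level from -0.77 (Dsp with Lct) to 0.80 (C1ql2 with Prox1), with a median of -0.21, so these genes did not rise and fall as 1 set in untreated tissue. Levels below 1 FPKM rest on few reads, which limits such correlations.

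**Figure D3:**
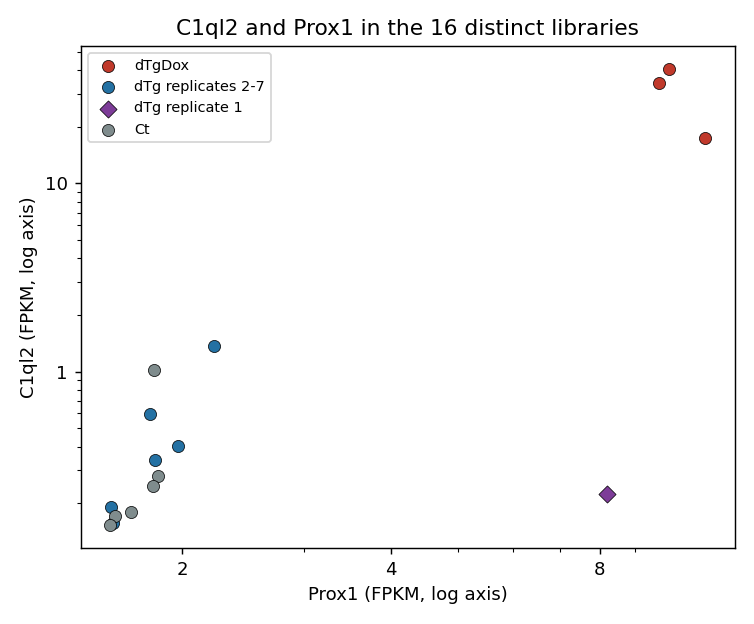
C1ql2 against Prox1 in FPKM, both on log axes, 1 point per distinct library. The 3 dTgDox libraries are high on both axes, the dTg replicates 2 to 7 and Ct libraries are low on both, and dTg replicate 1 (diamond) has Prox1 at 8.18 FPKM and C1ql2 at 0.223 FPKM.

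The library labelled dTg replicate 1 did not carry the full set. Prox1 was 8.18 FPKM and Tdo2 6.71 FPKM in it, both above all 12 other untreated libraries, and Tdo2 was above the dTgDox libraries too. C1ql2 (0.223 FPKM), Lct (0.140 FPKM) and Dsp (0.112 FPKM) lay within the range of the other dTg libraries, and Pkp2, at 0.248 FPKM, lay below all 15 other libraries. Its ratio of Prox1 to Pkp2 was 33.0, against 0.965 to 1.10 in dTgDox. With that library included, dTgDox minus dTg was 1.95 for Prox1 and 0.81 for Tdo2, against 2.22 and 1.21 without it.

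A list of 20 further genes known from granule cells, which shares no gene with the 6, was read against a background in which 18.9% of all genes passed the test in dTgDox against dTg (9.65% higher, 9.22% lower). Of the 20, 10 were higher, 2 were lower and 8 did not pass, with a median difference of 0.80 beside -0.005 over all genes tested. Il16, which encodes a cytokine precursor, had 9.68, 8.93 and 9.42 FPKM in dTgDox, against 0.669 to 1.94 FPKM in dTg (median 1.04) and 0.589 to 1.18 FPKM in Ct (median 0.782). It rose by 2.61 (SE 0.20, limma adjusted p = 6.6e-07). Stra6, a retinol transporter gene, had 5.22, 3.89 and 4.82 FPKM in dTgDox, against 1.93 to 2.59 FPKM in dTg (median 2.16) and 1.695 to 2.304 FPKM in Ct (median 2.002), a rise of 0.93 (adjusted p = 4.6e-05). Il1r1, the interleukin-1 receptor gene, had 2.23, 2.54 and 1.92 FPKM in dTgDox, against 0.778 to 1.21 FPKM in dTg (median 0.868) and 0.729 to 1.01 FPKM in Ct (median 0.911), a rise of 0.95 (adjusted p = 8.3e-05). The other 7 that rose were Dock10, Glis3, Sema5a, Maml2, Rfx3, Gpc4 and Spata13, and Pdzd2 and Marcks fell.

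Calb1, which encodes the calcium buffer calbindin and is abundant in mature granule cells, did not pass. It had 38.0, 41.4 and 40.6 FPKM in dTgDox, against 37.6 to 66.6 FPKM in dTg (mean 47.2) and 30.9 to 56.7 FPKM in Ct (mean 45.6), a difference of -0.20 (SE 0.21, adjusted p = 0.56). Calbindin is also made by cortical neurons. Against Ct, where 19.7% of all genes passed (9.86% higher, 9.85% lower), 9 of the 20 were higher and 2 lower, with a median of 0.63. The 9 were not all among the 10 higher than dTg: Dock10, Glis3 and Spata13 did not pass against Ct, whereas Trpc6 and Neurod1 did. The dTgDox libraries serve in both comparisons. In dTg against Ct none of the 20 passed.

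Genes of other hippocampal cells moved in the same libraries. Of 15 genes of the hippocampal CA fields, 14 could be tested, 10 were higher in dTgDox than in dTg and 0 lower, with a median difference of 1.07. Fibcd1, a CA1 pyramidal marker, had 25.1, 23.4 and 25.9 FPKM in dTgDox, against 1.43 to 2.65 FPKM in dTg (median 2.19) and 1.78 to 3.11 FPKM in Ct (median 2.44), a rise of 3.29 (SE 0.17, adjusted p = 1.5e-08). Cabp7, a calcium-binding protein gene, averaged 95.4 ± 10.9 FPKM in dTgDox, 9.08 ± 3.94 FPKM in dTg and 6.11 ± 1.51 FPKM in Ct (SD), a rise of 3.40 (adjusted p = 1.1e-06), and Lefty1 rose by 2.92 (adjusted p = 6.1e-07). Summed over the 15 genes the level was 394.6 to 427.3 FPKM in dTgDox, 157.8 to 185.5 FPKM in dTg and 160.6 to 198.1 FPKM in Ct, and no gene of the list was at 0 in all libraries. The part of hippocampal tissue in the level of the 6 granule cell genes was not tested. In bulk tissue a different share of cells and a different amount of RNA per cell cannot be told apart.

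Of 10 markers of neocortical excitatory neurons, 0 were higher and 4 lower in dTgDox than in dTg, and 6 did not pass, with a median of -0.72. Of those 6, named after their values were seen, Fezf2 averaged 16.1 ± 1.69 FPKM in dTgDox, 13.0 ± 2.49 FPKM in dTg and 11.3 ± 3.40 FPKM in Ct (SD), and Tle4 15.4 ± 0.634, 13.1 ± 1.49 and 13.1 ± 2.59 FPKM in the same groups. Tbr1, a transcription factor of deep layer neurons, averaged 19.5 ± 4.84 FPKM in dTgDox, 43.6 ± 5.30 FPKM in dTg and 44.8 ± 8.17 FPKM in Ct (SD), and fell by 1.16 (adjusted p = 0.00015). Cux1, a transcription factor gene of upper layer neurons, fell by 0.70 (adjusted p = 0.00038). Of 4 markers of hilar mossy cells, 3 could be tested and none passed. Calb2 differed by 0.46 (SE 0.94), Drd2 by -0.33 (SE 1.27) and Nmb by -0.08 (SE 0.82), with limma adjusted p = 0.78, 0.89 and 0.96. They varied widely between untreated libraries, in Ct from 4.77 to 101.7 FPKM for Calb2 and from 0.291 to 19.1 FPKM for Drd2. With such errors a large difference could be missed, so no lack of change is read from them.

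Prox1 is also used by interneurons and by newborn granule cells, so lists for both were read beside it. Of 7 genes of interneurons from the caudal ganglionic eminence, 1 was higher (Htr3a, by 0.52, adjusted p = 0.037, a call lost in 8 alternatives, among them leaving out dTg replicate 2, 4 or 6 or dTgDox replicate 1 or 3) and 2 were lower (Vip by -1.11, adjusted p = 0.00024, and Crh by -0.98, adjusted p = 0.017). Their summed level overlapped between groups, at 83.0 to 107.4 FPKM in dTgDox, 80.7 to 142.3 FPKM in dTg and 73.8 to 182.6 FPKM in Ct. The spread of the untreated sums was largely that of Calb2, also in the hilar list, at 7.82 to 62.0 FPKM in dTg and 4.77 to 101.7 FPKM in Ct. Of 8 genes of newborn neurons, 0 were higher and 2 lower. Dcx, a microtubule protein gene of new neurons, fell by 1.21 (adjusted p = 0.0098) and Tubb3 by 0.46 (adjusted p = 0.0024). Neurod1 differed by 0.53 (adjusted p = 0.082). Dcx was highest in Ct replicates 1 (19.25 FPKM) and 5 (14.33 FPKM) and dTg replicate 3 (14.21 FPKM). The same libraries were highest for Calb2, at 101.7, 72.45 and 62.01 FPKM. Whether the Dcx of untreated libraries came from granule cells was not tested, so no loss of new granule cells is read from its fall. Of 5 cerebellar genes tested, 1 was lower (Car8, by -1.13, adjusted p = 0.00089), and Pcp2 (-0.40) and Ppp1r17 (-0.45) did not pass. Of 8 thalamic genes 3 were higher, Prkcd by 1.08 (adjusted p = 0.015) and Plekhg1 by 0.66 (adjusted p = 0.01) among them, and 1 was lower, Ramp3 by -1.24 (adjusted p = 0.00087).

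**Figure D4:**
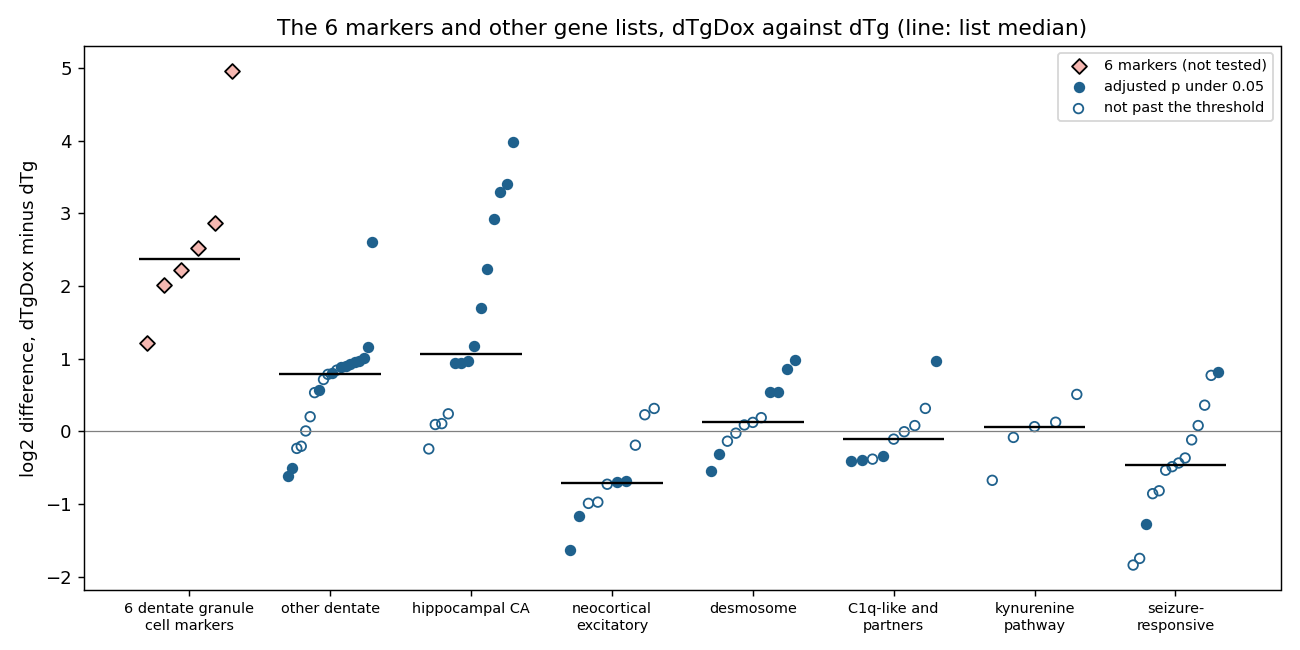
Log2 difference of dTgDox minus dTg (y axis, log2(FPKM + 0.5) scale) for each gene of the 6 markers and of 7 other lists; filled points have an adjusted p under 0.05, diamonds were not tested, and lines are list medians. The median is 2.37 for the 6 markers, 0.80 for other dentate genes, 1.07 for hippocampal CA genes and -0.72 for neocortical excitatory genes.

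Partner genes were listed for Pkp2, Dsp, C1ql2 and Tdo2, and none for Prox1 or Lct. For Pkp2 and Dsp, 17 genes of desmosomes and neighbouring junctions were listed and 11 could be tested. Of these, 4 passed as higher (Ppl, Pkp4, Dsg2 and Dsc3) and 2 as lower (Jup and Ank3), with a median of 0.12. Ppl and Dsc3 met the filter on low values only with the help of the dTgDox libraries, so their passing is not read as a result. Dsc3 reached at most 0.574 FPKM in dTg (median 0.0649) and 0.141 FPKM in Ct. Ppl, which encodes the plakin periplakin, had 0.701, 0.510 and 1.04 FPKM in dTgDox. It had 0.0812 to 0.285 FPKM in dTg (median 0.0997) and 0.0716 to 0.123 FPKM in Ct (median 0.0886). The difference of 0.98 from dTg is given as a description. Pkp4 rose by 0.54 (adjusted p = 0.0022). Jup, which encodes plakoglobin, the desmosomal partner of desmoplakin, had 12.9, 14.8 and 11.9 FPKM in dTgDox, against 16.6 to 24.2 FPKM in dTg (median 18.4) and 17.4 to 27.8 FPKM in Ct (median 20.97). It fell by 0.54 (SE 0.14, adjusted p = 0.014), a call lost without dTgDox replicate 1 or 3, and Ank3 fell by 0.31 (adjusted p = 0.013), a call lost without dTgDox replicate 3. The Dsg2 and Dsc3 levels, at 0.840 ± 0.197 and 0.663 ± 0.305 FPKM in dTgDox (SD), were far below those of Pkp2.

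For C1ql2, 10 related genes and partners were listed and 9 tested: 1 was higher and 3 lower. Grik4, a kainate receptor subunit gene that is also in the CA list, rose by 0.96 (adjusted p = 0.0018), averaging 12.7 ± 1.83 FPKM in dTgDox, 6.39 ± 1.76 FPKM in dTg and 6.12 ± 0.915 FPKM in Ct (SD). Among those lower, the neurexin gene Nrxn2 fell by 0.39 (adjusted p = 0.0069). C1ql3, the C1q-like gene that granule cells share with cortical neurons, had 19.6, 18.5 and 19.4 FPKM in dTgDox, against 12.6 to 35.8 FPKM in dTg (median 25.3) and 19.0 to 38.1 FPKM in Ct (median 26.8), a difference of -0.38 that did not pass (adjusted p = 0.38). C1ql2 was above C1ql3 in 2 of 3 dTgDox libraries, whereas in dTg and Ct every C1ql3 value was above 12 FPKM and every C1ql2 value below 2 FPKM.

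For Tdo2, 12 genes of the kynurenine route and its rival serotonin route were listed, 5 were expressed enough to test and none passed. Afmid differed by 0.51 (adjusted p = 0.17), Ido1 by -0.67 (adjusted p = 0.37) and Kyat3 by 0.13 (adjusted p = 0.59).

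The series title concerns epileptiform activity, and granule cells respond to seizures, so 14 genes known to change in them after seizures were read. In dTgDox against dTg 1 was higher, 1 lower and 12 did not pass. The list median was -0.46, beside -0.005 over all genes tested, and against Ct it was -0.62, beside -0.008. Nptx1, a neuronal pentraxin gene, rose by 0.82 (adjusted p = 0.0012), and Npy, the neuropeptide Y gene, fell by 1.27 (adjusted p = 1.1e-05), with 65.1, 82.1 and 56.0 FPKM in dTgDox, against 144.2 to 194.4 FPKM in dTg (median 159.1) and 130.9 to 189.6 FPKM in Ct (median 164.9). Npy is also a product of cortical interneurons. Bdnf differed by 0.36 (adjusted p = 0.23) and Ptgs2 by 0.77 (adjusted p = 0.058). Against Ct, Ptgs2 was higher by 0.81 and passed (limma adjusted p = 0.047). Reactive astrocyte genes moved in the same libraries: 3 of 7 were higher and 0 lower, Gfap by 2.55 (adjusted p = 0.00015), Serpina3n by 2.51 (adjusted p = 0.00015) and C4b by 1.47 (adjusted p = 0.0011). Gfap had 276.1, 127.2 and 203.6 FPKM in dTgDox, against 20.0 to 42.0 FPKM in dTg and 19.0 to 49.0 FPKM in Ct, lowest in the dTgDox replicate in which C1ql2 was also lowest. None of the genes of these lists passed in dTg against Ct.

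The genes whose pattern was most like that of the 6 over the 15 libraries were, of 17797 considered and by Pearson correlation with the mean of the members' scaled log2 levels, Gm13394 (0.988), Klk8 (0.982), Gpr161 (0.980), Olfml2b (0.979), 2310002F09Rik (0.975), Fibcd1 (0.974), Nr3c2 (0.972) and Rnf182 (0.971). All 8 were higher in dTgDox, which is what sets the measure: Klk8, a neuronal protease gene, averaged 8.12 ± 0.954 FPKM in dTgDox, 1.06 ± 0.188 FPKM in dTg and 1.001 ± 0.124 FPKM in Ct (SD). Gpr161, an orphan receptor gene, averaged 11.4 ± 0.622 FPKM in dTgDox, 1.42 ± 0.194 FPKM in dTg and 1.43 ± 0.317 FPKM in Ct (SD). Nr3c2, the mineralocorticoid receptor gene, averaged 27.0 ± 2.02 FPKM in dTgDox, 7.51 ± 1.201 FPKM in dTg and 8.82 ± 0.604 FPKM in Ct (SD). Over the 12 untreated libraries alone the list shared no gene with the first: it was led by Hcrtr2 (0.882), Zfp951 (0.868), Endod1 (0.865), Gcc1 (0.842) and Zfp64 (0.839). These are the highest of 17797 genes over only 12 libraries, and values of this size can arise among unrelated genes. The members themselves had a median pair correlation of -0.21 there, so no shared pattern is read from this second list.

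The flanking genes were read to see whether a stretch of chromosome moved with a member. Of the 12 nearest tested protein-coding neighbours, 3 were higher and 1 lower in dTgDox than in dTg, and none of the 4 next to C1ql2 and Prox1 passed. Beside Lct, Ubxn4 (5.4 kb away) was higher by 0.29 (adjusted p = 0.028) and Mcm6 (3.3 kb away) by 0.52 (adjusted p = 0.038). Beside Pkp2, Spidr was higher by 0.76 (adjusted p = 0.00015), and beside Tdo2, Gucy1b1 fell by 0.59 (adjusted p = 0.00098), while Ctso, 0.4 kb from Tdo2, differed by 0.09 (adjusted p = 0.55).

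Whether the untreated level of the members followed that of hippocampal or interneuron genes was examined over the 12 untreated libraries, in 12 relations of a member with the mean of a list. None passed after adjustment; the smallest adjusted p of a permutation test was 0.4138 (Pearson). For C1ql2 with the CA genes Pearson's r was -0.17 (permutation p = 0.5807, adjusted 0.6968) and Spearman's rho 0.13 (permutation p = 0.6997, adjusted 0.7633), with r of -0.72 within dTg, 0.49 within Ct and 0.19 without the 2 libraries farthest from the median. For Prox1 with the same genes r was -0.30 (permutation p = 0.3605, adjusted 0.5407) and rho -0.03 (permutation p = 0.9426), with r of -0.84 within dTg and 0.69 within Ct, so the sign differed between the groups. The relation therefore could not be read from the pooled libraries.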

How the data were processed

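Polyadenylated RNA was sequenced from 1 end on a NextSeq instrument, with 2 flow cells that the labels do not assign to libraries. Per the submitters' processing notes TopHat2 and DESeq were used; no version, genome build, quantifier or strand setting was found in the labels or file headers. The authors deposited 1 FPKM value per Ensembl gene and library, a unit read from how values of single-exon genes step with gene length; read depth is an estimate from those steps. Symbols (45139 of 46073 identifiers) and coordinates came from GENCODE M21.

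limma 3.58.1 in R 4.3.3 was fitted to log2(FPKM + 0.5) over 15 libraries, for the 19064 genes that reached 0.5 FPKM in 3 or more libraries, with trend and robust moderation. Two-sided p-values were adjusted by the Benjamini-Hochberg method over all of these genes (threshold 0.05), and the script was tested on simulated data. The genes named were the 6 members, the 3 smallest p-values of each list, Calb1, Bdnf, Jup, C1ql3 and Gfap, the 8 and 5 most alike genes and the nearest neighbours; other names of listed genes that passed complete a count. Some genes that this rule names are not reported here. The members and lists were chosen with earlier results of these data known, so none is independent evidence. Permutation tests used 100000 resamples (scipy 1.17.1). The alternatives were other pseudocounts, filters and scalings, a replicate block, dTg replicate 1 included, and each library left out.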

Additional observations from a re-analysis of the deposited data

Results flagged for a closer look

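C1ql2 in Ct was flagged because 1 of the 6 libraries, Ct replicate 4, lay far above the others at 1.025 FPKM, with the next at 0.279 FPKM. C1ql2 in dTg replicates 2 to 7 was flagged in the same way by dTg replicate 4 at 1.362 FPKM, with the next at 0.595 FPKM. Both came from 12 groups of 6 libraries examined, where chance alone marks about 5%.

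The library labelled dTg replicate 1, which the comparisons leave out, had Prox1 at 8.182 FPKM, above every Ct library (highest 1.85 FPKM). It had Tdo2 at 6.714 FPKM, also above every Ct library (highest 0.820 FPKM). The 10 cerebellar genes summed to 2967 FPKM in the same library; their part in these levels was not tested.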

How the results depend on the processing

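Over 274 alternative values the dTgDox differences of the 6 members reversed in 0. Little else could occur, since the members were chosen for their high values in these same dTgDox libraries, so this count is no support. Some of the values cannot change at all, such as dTgDox minus dTg with a Ct library left out. The pseudocount moved Dsp most: dTgDox minus dTg was 3.27 at 0.1 and 1.45 at 1, against 2.02 at 0.5; Lct was 3.82 and 2.27, and C1ql2 5.84 and 4.36. In dTg against Ct, no member passed under the alternatives in which it could be tested (Dsp could not with a dTgDox library left out, and C1ql2, Lct, Dsp and Tdo2 could not with at least 1 FPKM in 6 libraries required); leaving out 1 library gave -0.13 to 0.04 for Dsp and -0.03 to 0.20 for Tdo2.

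Genes passing in dTgDox against dTg numbered 1537 with dTg replicate 1 included and 1562 with a replicate block, and 2077 to 3715 with 1 library left out (2077 without dTgDox replicate 1, 2155 without dTgDox replicate 3). Against Ct they numbered 1504 with dTg replicate 1, 2394 with the block, and 2229 to 3872 with 1 library left out (2229 without dTgDox replicate 1, 2273 without dTgDox replicate 3). In dTg against Ct the count was 1 with a pseudocount of 0.1 and 0 to 1 with 1 library left out (1 without dTg replicate 3 or 6). The cause was not tested. Of the other dentate genes 0 were lower with dTg replicate 1 included; with 1 library left out 7 to 11 were higher, and 9 to 10 of the CA genes. No pairing by replicate number was seen in the deviations of log2 levels from each group's mean. These correlated at -0.188 to 0.08 over 10 pairs of same-numbered libraries from different groups. Over 62 pairs with other numbers they correlated at -0.113 to 0.183.

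Of 30 listed genes named as passing in dTgDox against dTg, 16 lost the call somewhere. Including dTg replicate 1 took it from Il16 (adjusted p = 0.2), Tbr1 (0.92), Vip (0.92), Npy and Dcx (0.41 each), Nptx1 (0.1), Car8 (0.28), Tubb3 (0.29), Crh (0.65), Jup (0.14), Htr3a (0.29) and Prkcd (0.34), among others. The replicate block changed Afmid to passing (0.81, adjusted p = 0.04) and took the call from Prkcd, Htr3a, Plekhg1 and Ank3, among others. Htr3a also lost it without a filter on low values and without dTg replicate 2, 4 or 6. Leaving out 1 dTgDox library took it from Jup, Prkcd, Htr3a, Plekhg1, Crh and Ank3, among others. Genes that had not passed changed sign: Calb2 to -0.16 and Neurod1 to -0.18, C1ql3 to 0.04 with dTg replicate 1; Calb2 to -0.51 and Drd2 to 0.07 with the replicate block; with 1 library left out Drd2 ranged from -0.73 to 0.08 and Nmb from -0.20 to 0.34. Of the correlations with list means, C1ql2 with CA genes was 0.13 by rank and 0.19 without the 2 farthest libraries, Pkp2 with CA genes -0.25 and -0.35, and Tdo2 with interneuron genes -0.00 without the 2 farthest.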
